A study of Mus musculus with 4 samples.

Results

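Chemokine ligands are small proteins, most of them secreted, that direct the movement of blood cells, and their RNA was measured here in OP9 cells, a mouse bone marrow stromal line. The genes were taken by name: every array probe whose gene symbol, as the array annotation gives it or as the reference table updates it, was Ccl or Cxcl with a number, or Cx3cl1, without Cxcl12. This gave 42 probes for 34 genes, of 27597 named genes on the array: 20 CC chemokines, 13 CXC chemokines and Cx3cl1. Cxcl17 and Cxcl3 were found only through their transcript accessions, and Pf4 was included because the array annotation calls it Cxcl4. A gene was tested where, in either group, both arrays read a probe of it above the detection floor. That held for 21 of the 34 genes and for 22859 genes of the whole array.

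The Wnt3A group consisted of 2 samples of OP9 cells that had received the retroviral vector LZRS-IRES-GFP with the Wnt3A gene, and the Control group of 2 samples that had received the same vector without it. All 4 samples were grown in MEM with fetal calf serum, so serum was present in both groups, and the vector carries GFP in both. The labels speak of separate replicates but do not state separate cultures or clones, so a p-value here measures only the spread between these samples, which may be technical. RNA of each sample was amplified by a global PCR method, labelled with Cy3 and hybridised to a 1-colour Agilent array.

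Chemokines are grouped by the spacing of their first cysteines into CC, CXC and CX3C classes, and they act through G protein-coupled receptors on leukocytes. Inflammatory members are induced in stromal cells through NF-kB or interferon signalling, and homeostatic members are made constantly to place lymphocytes and progenitors in tissues. In bone marrow, stromal chemokines hold progenitors in place and let monocytes and neutrophils leave. Many are presented on heparan sulphate chains at the cell surface, and atypical receptors take them up without signalling.

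Values are linear intensities from the deposited table, in which every array has a median of 1. Log2 changes are Wnt3A minus Control after each array's 75th percentile was subtracted, and overlap of the groups is judged on these scaled values. The detection floor is an estimate, and adjusted p-values come from limma over all tested probes. Arrays of the same group correlated at r = 0.935 (Wnt3A) and 0.930 (Control), and arrays of different groups at 0.876 to 0.885, across 33709 probes that are not independent replicates. Of 15 stromal markers, 14 lay above the floor on all 4 arrays, and Lum lay above it on none. Of all 41174 probes, 30798 lay above it on all 4 arrays. The probe of Wnt3a lay above the floor on 1 Wnt3A array (0.123) and on none of the others (0.0112 on the other Wnt3A array, 0.0151 and 0.0134 on the Control arrays), and whether the insert holds the probe's stretch is not stated. Axin2, a widely used target of canonical Wnt signalling, read 0.127 and 0.208 on the Wnt3A arrays, against 0.0156 and 0.0138, below the floor, on the Control arrays. Against the floor it was at least 2.45-fold higher. The adjusted p of its limma fit, 0.0645, uses the values below the floor as read. In the scanner files described next, Axin2 was not well above background on any of the 4 arrays, and Wnt3a was well above it on 1 Wnt3A and 1 Control array.

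A second source disagrees with the table and bears on every value. The 4 scanner files, 1 per sample, did not match the table's columns: all 4 columns were closest in rank to the scanner file of Control replicate 2 (Spearman's rho 0.826 to 0.845 over spots), and the file of Control replicate 1 was faint, with 41.8% of spots well above background. Of 19 chemokines measured in both sources, 12 had a log2 change of the same direction and 7 of the opposite one. Which arrays the table's values came from is not stated in the sources used here. The table is used throughout, and where the scanner files reversed a tested chemokine or named companion gene, or did not measure it, that is said beside it. A gene's scanner value is that of the probe that is brighter in the table, unless another probe is named. The scanner fit gave every chemokine the same SE, 1.42, so it is not the spread of that gene alone.

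Across the 21 tested genes, 14 had lower and 7 higher intensity in Wnt3A cells than in Control cells. Of all tested genes, 51% were lower and 49% higher. The median log2 change of the chemokines was -0.60, beside -0.013 over all tested genes. The scanner values gave a chemokine median of 0.12, so the direction of this shift depends on the source. None of the 24 chemokines measured in the scanner files passed the adjusted threshold there, where 0% of all genes were higher and 0.00963% lower by that rule, and none passed an unadjusted p of 0.05, where 1.21% were higher and 1.1% lower. Only Ccl9 passed an adjusted p of 0.05. It fell, where 0.241% of all genes tested fell by that rule. No chemokine rose, where 0.402% of all genes did. At an unadjusted p of 0.05, 7 chemokines were lower, where 6.34% of all genes were, and 2 were higher, where 6.31% were. Both Wnt3A arrays lay below both Control arrays for 11 of the 21 genes, where 23.7% of all genes showed this, and above them for 3, where 21.5% did. Log2 changes under -1 were found for 8 of 21 chemokines and for 9.83% of all genes, and changes under -2 for 5 of 21 and for 2.86%. The lower counts include Cxcl5, which was tested only through its Control arrays, with 1 Wnt3A array below the floor. The higher counts include Cxcl15, whose brighter probe was tested only through its Wnt3A arrays and whose other probe was lower. Over the 19 genes above the floor on all 4 arrays, the median log2 change was also -0.60.

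**Figure D1:**
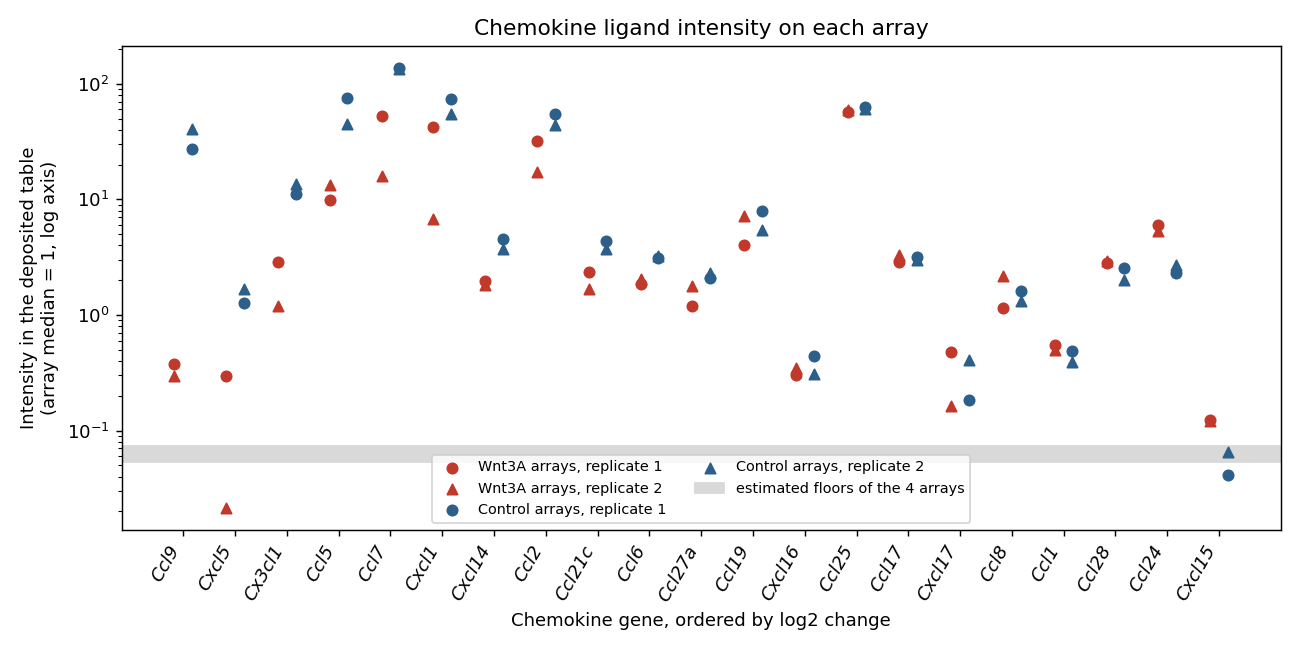
Intensity of each tested chemokine on the 2 Wnt3A arrays (red) and the 2 Control arrays (blue), on a log axis, with genes ordered by log2 change and the estimated floors as a grey band. Ccl9 lies at 0.374 and 0.294 on the Wnt3A arrays and at 27.3 and 40.5 on the Control arrays, the widest gap among the 21 genes.

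Ccl9 and Ccl6 are neighbouring genes on chromosome 11 and encode CC chemokines that act on myeloid cells through Ccr1. Ccl9 had intensities of 0.374 and 0.294 in Wnt3A cells, against 27.3 and 40.5 in Control cells. Both Wnt3A arrays were low, still above the floor, and far from both Control arrays. The level in Wnt3A cells was 1.00% of that in Control cells, a log2 change of -6.64 ± 0.36 (SE, adjusted p = 0.0277). Its single probe lies at chr11:83390916-83390975 (mm8). The scanner files gave Ccl9 the opposite direction: 1064 and 6424.5 in Wnt3A cells, against 10.4, not well above background, and 1701 in Control cells, a log2 change of 2.31 ± 1.42 (SE, adjusted p = 1.00). With any 1 array left out of the table, the log2 change of Ccl9 was from -6.87 to -6.41. Such a fit has 1 array in a group and cannot decide whether the call holds. Ccl6 read 1.86 and 2.06 in Wnt3A cells, against 3.14 and 3.22 in Control cells (log2 change -0.69 ± 0.30, adjusted p = 0.435). The groups of Ccl6 did not overlap.

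Ccl5, which draws T cells and monocytes, lies beside them on the same chromosome. Its brighter probe read 9.94 and 13.4 in Wnt3A cells, against 75.6 and 45.0 in Control cells (log2 change -2.33 ± 0.44, adjusted p = 0.146). The other probe read 12.9 and 12.4, against 38.2 and 24.4 (log2 change -1.27 ± 0.39, adjusted p = 0.304). Both probes kept the groups apart, and neither passed the adjusted threshold. In the scanner files the brighter probe had a log2 change of 0.31 ± 1.42. Ccl3 and Ccl4, inflammatory chemokines that lie next in order, were not tested: Ccl3 was below the floor on all arrays, and Ccl4 exceeded it on 1 Control array only (0.0924). Their detection depends on the source: in the scanner files Ccl4 was well above background on all 4 arrays (log2 change -1.34 ± 1.42) and Ccl3 on all but Control replicate 1 (0.86 ± 1.42).

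The promoter of Ccl9 is shown because it is the 1 chemokine past the threshold. Those of Cx3cl1, Cxcl14 and Cxcl15 are shown because they differed at an unadjusted p of 0.05. Ccl5, Ccl7, Ccl21c, Ccl24 and Cxcl5 also differed by that rule but had no promoter sequence here. Cxcl1 and Cxcl2 are shown as a near neighbour pair with a shared motif and unlike intensities in the deposited table. Sequences are from RefSeq (GRCm38.p6), from 250 bases before to 50 after the annotated start, 5′ to 3′ on the gene's strand. Capitals mark matches on either strand to the NF-kB motif (GGGA, any 4 bases, CC), the interferon response motif (GAAA, any 2 bases, GAAA) or the TCF/LEF motif (CTTTGAT), and overlapping matches run together.
Ccl9, chr11:83578587-83578886, minus strand: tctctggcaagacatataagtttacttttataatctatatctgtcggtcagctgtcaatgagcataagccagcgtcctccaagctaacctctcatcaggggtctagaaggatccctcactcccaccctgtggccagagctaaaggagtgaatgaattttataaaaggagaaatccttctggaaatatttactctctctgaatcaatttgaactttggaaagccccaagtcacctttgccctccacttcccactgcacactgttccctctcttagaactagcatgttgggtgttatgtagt
Cx3cl1, chr8:94771930-94772229, plus strand: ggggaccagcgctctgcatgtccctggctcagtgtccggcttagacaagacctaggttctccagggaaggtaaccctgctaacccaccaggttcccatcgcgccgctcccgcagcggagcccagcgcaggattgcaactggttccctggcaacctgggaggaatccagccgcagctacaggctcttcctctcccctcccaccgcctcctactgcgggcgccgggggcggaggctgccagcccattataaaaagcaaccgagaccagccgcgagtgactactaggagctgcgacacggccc
Cxcl14, chr13:56296502-56296801, minus strand: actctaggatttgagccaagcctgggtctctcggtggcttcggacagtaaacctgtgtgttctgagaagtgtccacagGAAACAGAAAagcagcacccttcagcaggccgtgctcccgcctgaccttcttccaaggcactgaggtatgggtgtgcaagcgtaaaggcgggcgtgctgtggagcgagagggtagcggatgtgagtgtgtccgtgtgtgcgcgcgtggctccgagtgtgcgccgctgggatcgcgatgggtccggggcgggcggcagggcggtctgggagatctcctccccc
Cxcl15, chr5:90794284-90794583, plus strand: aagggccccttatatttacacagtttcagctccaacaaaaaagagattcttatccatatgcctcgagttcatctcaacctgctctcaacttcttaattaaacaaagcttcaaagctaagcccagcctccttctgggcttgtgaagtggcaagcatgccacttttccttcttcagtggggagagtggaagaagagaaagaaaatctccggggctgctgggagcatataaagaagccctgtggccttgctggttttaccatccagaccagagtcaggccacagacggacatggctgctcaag
Cxcl1, chr5:90890995-90891294, plus strand: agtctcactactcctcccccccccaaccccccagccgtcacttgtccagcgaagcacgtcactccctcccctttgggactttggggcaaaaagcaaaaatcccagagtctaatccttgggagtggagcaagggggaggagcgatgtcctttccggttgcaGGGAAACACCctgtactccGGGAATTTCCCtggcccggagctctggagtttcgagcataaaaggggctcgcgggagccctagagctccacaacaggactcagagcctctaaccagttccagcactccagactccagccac
Cxcl2, chr5:90903649-90903948, plus strand: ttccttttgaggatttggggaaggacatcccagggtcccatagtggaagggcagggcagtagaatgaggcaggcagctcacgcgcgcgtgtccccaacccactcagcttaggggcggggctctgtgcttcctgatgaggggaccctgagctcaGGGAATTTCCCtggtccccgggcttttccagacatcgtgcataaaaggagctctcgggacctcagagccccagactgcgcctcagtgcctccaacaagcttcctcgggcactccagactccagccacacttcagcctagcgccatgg

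The Ccl9, Cx3cl1 and Cxcl15 stretches hold none of the 3 motifs, and Cxcl14 holds 1 interferon response match. Cxcl1 and Cxcl2 share the letters gggaatttcc on the plus strand, which also match on the minus strand 1 base further on. Of the 34 genes, 23 had a promoter in the table. A gene counted where any of its promoters held a match, while the shares of all are over single promoters. NF-kB matches were in 11 of these 23 genes, and in 20.7% of 32851 mouse promoters. Among the 13 tested genes with a promoter, 4 held one: Ccl1, Ccl19, Ccl27a and Cxcl1. The other tested genes, Ccl2, Ccl5, Ccl7, Ccl21c, Ccl24, Cxcl5, Cxcl16 and Cxcl17, had no promoter sequence here. Whether their promoters hold any of the 3 motifs was not tested, so the counts do not describe the lowered chemokines as a set. Interferon response matches were in 3 of 23 genes (Ccl19, Cxcl10 and Cxcl14) and in 3.44% of all promoters. TCF/LEF matches were in 0 of 23 genes and in 3.73% of all promoters. These are matches of letters in a short window and describe no binding.

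The monocyte chemoattractants Ccl2, Ccl7 and Ccl8 lie in a second cluster on chromosome 11, with Ccl11, Ccl12 and Ccl1. Ccl7, which draws monocytes through Ccr2, read 53.0 and 16.0 in Wnt3A cells, against 137 and 135 in Control cells (log2 change -2.21 ± 0.67, adjusted p = 0.298). Its other probe read 14.3 and 3.03, against 36.0 and 44.6 (log2 change -2.60 ± 0.83, adjusted p = 0.316). Both probes put both Wnt3A arrays below both Control arrays, with Wnt3A replicate 2 the lower on each. The log2 change of the brighter probe was -1.33 without Wnt3A replicate 2 and -3.09 without Wnt3A replicate 1. Ccl2, the main ligand of Ccr2, read 31.9 and 17.1 in Wnt3A cells, against 54.8 and 44.0 in Control cells (log2 change -1.06 ± 0.46, adjusted p = 0.435). The 10 spots of the Ccl2 probe varied by 3.88% to 5.27% (CV) within an array, less than the gap between the 2 Wnt3A arrays. Ccl8, which in the mouse acts through Ccr8, read 1.15 and 2.15 in Wnt3A cells, against 1.60 and 1.33 in Control cells (log2 change 0.12 ± 0.44, adjusted p = 0.946), and its groups overlapped. In the scanner files the log2 changes were -1.05 for Ccl2, -0.25 for the brighter Ccl7 probe and -1.69 for Ccl8, each ± 1.42. The Ccl8 value and that of the other Ccl7 probe, 2.44 ± 1.42, had the opposite direction to the table. That Ccl7 probe was not well above background in either Control file. Ccl12, the fourth member of this group, and the eotaxin Ccl11 were below the floor on all 4 arrays.

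Neutrophil attractants of the CXC class act mostly through Cxcr2, and 3 of the 5 on the array were tested. Cxcl1 read 42.7 and 6.70 in Wnt3A cells, against 73.5 and 55.2 in Control cells (log2 change -1.90 ± 0.98, adjusted p = 0.512). Both Wnt3A arrays were below both Control arrays, but replicate 2 was far lower than replicate 1, and the log2 change was -0.55 without Wnt3A replicate 2 and -3.25 without Wnt3A replicate 1. Cxcl5 read 0.298 and 0.0214 in Wnt3A cells, the second below the floor, against 1.28 and 1.66 in Control cells (log2 change -4.18 ± 1.34, adjusted p = 0.318). Its size rests on a value below the floor, and it was -2.26 without Wnt3A replicate 2 and -6.09 without Wnt3A replicate 1. Cxcl5 was not well above background in any of the 4 scanner files. Cxcl15, known in the mouse as lungkine, was faint, and its 2 probes disagreed. The brighter read 0.123 and 0.122 in Wnt3A cells, against 0.0410 and 0.0655 in Control cells (log2 change 1.26 ± 0.35, adjusted p = 0.269), with 1 Control array above the floor, and was not tested in the scanner files. The other read 0.0649 and 0.0365, against 0.133 and 0.124 (log2 change -1.39 ± 0.42, adjusted p = 0.299). Cxcl2 and Cxcl3 lay below the floor on every array although Cxcl2 is the neighbour of Cxcl1. In the scanner files Cxcl2 was well above background on 1 Wnt3A and 1 Control array.

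**Figure D2:**
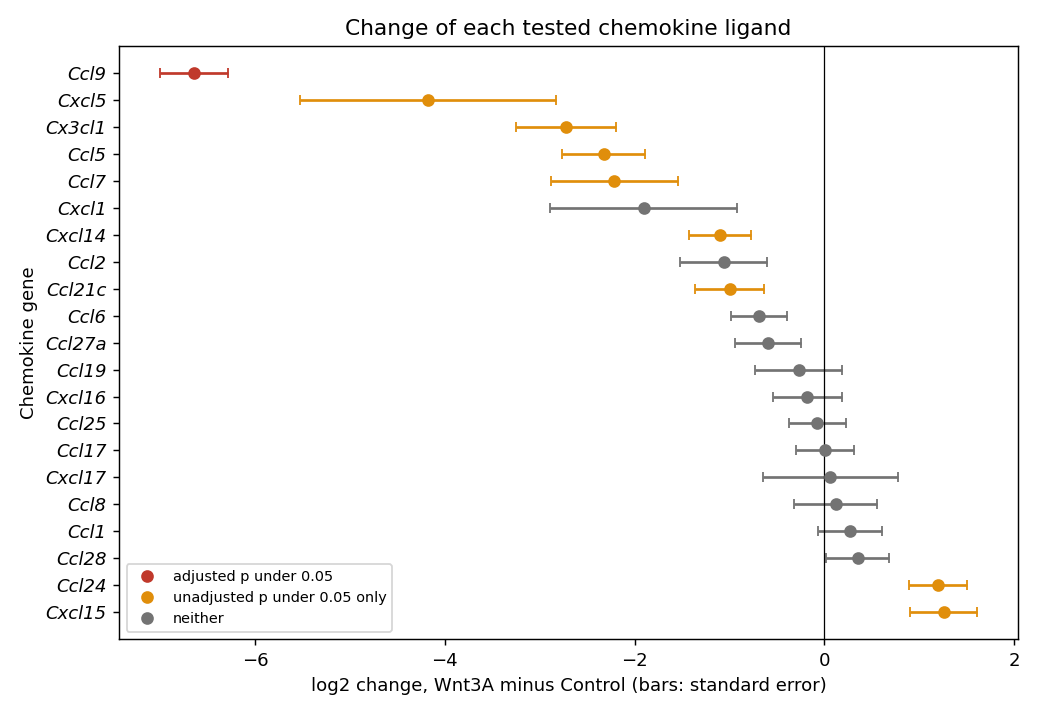
Log2 change (Wnt3A minus Control) of the 21 tested chemokines, with standard errors from limma and colour for the threshold each passed. Ccl9 at -6.64 is the single gene past an adjusted p of 0.05, and Cxcl5 has the widest error, 1.34.

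Cx3cl1, or fractalkine, is a membrane-bound chemokine that holds monocytes by Cx3cr1 and is shed by the proteases Adam10 and Adam17. Its brighter probe read 2.85 and 1.20 in Wnt3A cells, against 11.2 and 13.6 in Control cells (log2 change -2.72 ± 0.53, adjusted p = 0.155). The other probe read 0.283 and 0.875, against 0.682 and 0.979 (log2 change -0.71 ± 0.63, adjusted p = 0.712). The brighter probe separated the groups and the fainter one did not. The scanner files gave the brighter probe a log2 change of 1.05 ± 1.42, the opposite direction. On the table it was -2.09 without Wnt3A replicate 2 and -3.36 without Wnt3A replicate 1. Cxcl16, the other membrane-bound chemokine and the ligand of Cxcr6, read 0.302 and 0.349 in Wnt3A cells, against 0.441 and 0.311 in Control cells (log2 change -0.18 ± 0.37, adjusted p = 0.886). Its second probe read 0.328 and 0.920, against 0.195 and 0.133 (log2 change 1.78 ± 0.62, adjusted p = 0.346), so the direction of Cxcl16 depends on the probe. Its brighter probe in the scanner files had a log2 change of 0.77 ± 1.42, the opposite direction to the table.

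**Figure D3:**
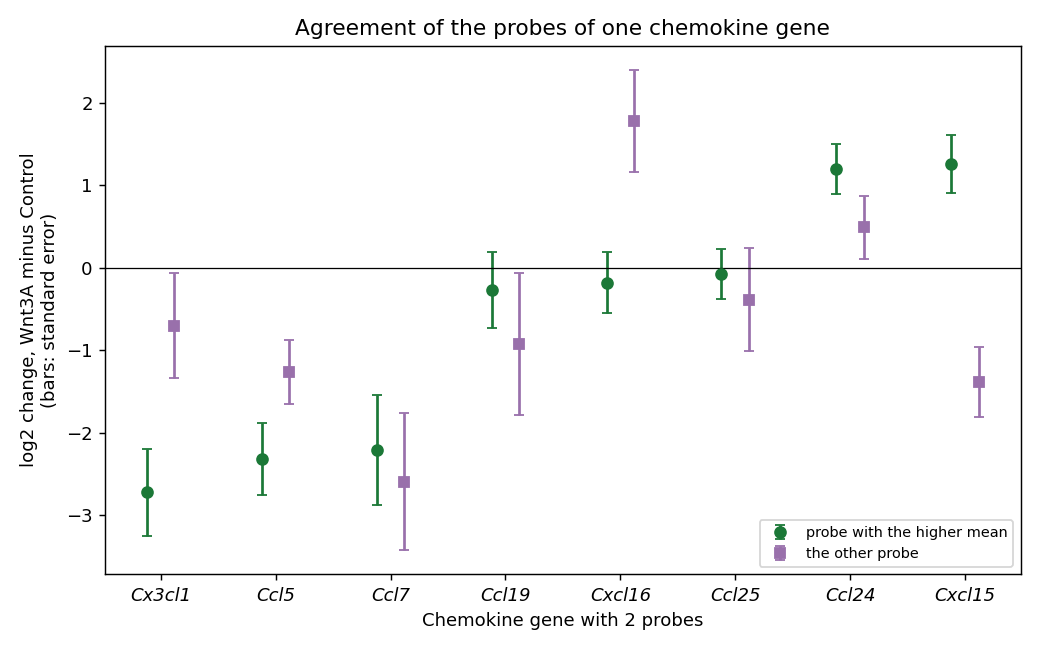
Log2 change with standard error for the 8 chemokines with 2 probes, the probe with the higher mean intensity in green and the other in purple. The probes of 6 genes share a direction, and those of Cxcl15 (1.26 and -1.39) and Cxcl16 (-0.18 and 1.78) do not.

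Of 9 homeostatic and tissue-homing chemokines 7 were tested, with 2 higher, 5 lower and none past the adjusted threshold. Cxcl14, made by epithelia and fibroblasts, read 1.97 and 1.83 in Wnt3A cells, against 4.50 and 3.72 in Control cells (log2 change -1.10 ± 0.33, adjusted p = 0.291). Ccl21c, which guides cells that bear Ccr7, read 2.37 and 1.67 in Wnt3A cells, against 4.33 and 3.70 in Control cells (log2 change -0.998 ± 0.365, adjusted p = 0.366). Neither gene's groups overlapped. Ccl27a, a ligand of Ccr10, read 1.19 and 1.76 in Wnt3A cells, against 2.11 and 2.32 in Control cells (log2 change -0.60 ± 0.35, adjusted p = 0.556), again without overlap. Ccl27a went the opposite way in the scanner files (log2 change 0.95 ± 1.42). Ccl21c, Ccl27a and Ccl19 lie in a stretch of chromosome 4 with near-identical gene copies in the mouse, so their signal may be shared between copies.

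Ccl25, which brings T cell precursors to the thymus through Ccr9, was bright and nearly level: 57.1 and 59.5 in Wnt3A cells, against 63.5 and 60.3 in Control cells (log2 change -0.08 ± 0.30, adjusted p = 0.950). Its other probe read 2.57 and 7.30, against 4.34 and 7.50 (log2 change -0.39 ± 0.63). Ccl19, the second ligand of Ccr7, read 4.06 and 7.21 in Wnt3A cells, against 7.98 and 5.42 in Control cells (log2 change -0.27 ± 0.46, adjusted p = 0.860), and its groups overlapped on both probes. The scanner files gave Ccl19 the opposite direction (log2 change 0.88 ± 1.42). Ccl17, a ligand of Ccr4, read 2.89 and 3.28 in Wnt3A cells, against 3.18 and 3.002 in Control cells (log2 change 0.0050 ± 0.306, adjusted p = 0.997). Ccl28, a mucosal ligand of Ccr10, read 2.80 and 2.92 in Wnt3A cells, against 2.53 and 2.02 in Control cells (log2 change 0.35 ± 0.33, adjusted p = 0.727). Only Ccl28 of these 4 had both Wnt3A arrays above both Control arrays.

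Ccl24, an eotaxin that draws eosinophils through Ccr3, was higher in Wnt3A cells on both of its probes. Its brighter probe read 6.03 and 5.38 in Wnt3A cells, against 2.31 and 2.70 in Control cells (log2 change 1.20 ± 0.30, adjusted p = 0.233). The other probe read 2.03 and 1.27, against 1.17 and 1.14 (log2 change 0.49 ± 0.38, adjusted p = 0.669). Both probes put both Wnt3A arrays above both Control arrays. Ccl1, a ligand of Ccr8, read 0.545 and 0.502 in Wnt3A cells, against 0.491 and 0.389 in Control cells (log2 change 0.27 ± 0.34, adjusted p = 0.801). Cxcl17, a mucosal chemokine, read 0.482 and 0.165 in Wnt3A cells, against 0.183 and 0.404 in Control cells (log2 change 0.06 ± 0.71, adjusted p = 0.985), with complete overlap of the groups.

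The 13 genes that were not tested read between 0.0108 and 0.631, and 7 of them were above the floor on no array. Cxcl9, Cxcl10 and Cxcl11, which interferon induces and which draw T cells through Cxcr3, were among the 13 but not among these 7. Cxcl9 was above the floor on 1 Control array, and Cxcl11 on 1 Wnt3A and 1 Control array. Cxcl10 read 0.0501 and 0.0171 in Wnt3A cells, against 0.631 and 0.0165 in Control cells, so 1 Control array alone was above the floor. Ccl20, Ccl22, Cxcl13 and Pf4 were also untested. By the scanner files, Ccl20 and Cxcl3 were well above background on no array, Cxcl11 on all 4, and Pf4 on 2 Wnt3A and 1 Control array. Ccl12, Ccl22, Cxcl2, Cxcl9, Cxcl10 and Cxcl13 were each well above it on 1 Wnt3A and 1 Control array, and Ccl11 on 1 Wnt3A array.

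By position, 8 of 12 genes on chromosome 11 were tested, with 6 lower and 2 higher. Both Wnt3A arrays lay below both Control arrays for 5 of the 8, beside 23.7% of all tested genes. On chromosome 5, 4 of 11 were tested, with 2 lower and 2 higher. Cxcl12, the chemokine that retains blood progenitors in marrow and that was left out of the set, read 10.48 and 7.22 in Wnt3A cells, against 19.5 and 29.2 in Control cells (log2 change -1.44 ± 0.39, adjusted p = 0.250).

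**Figure D4:**
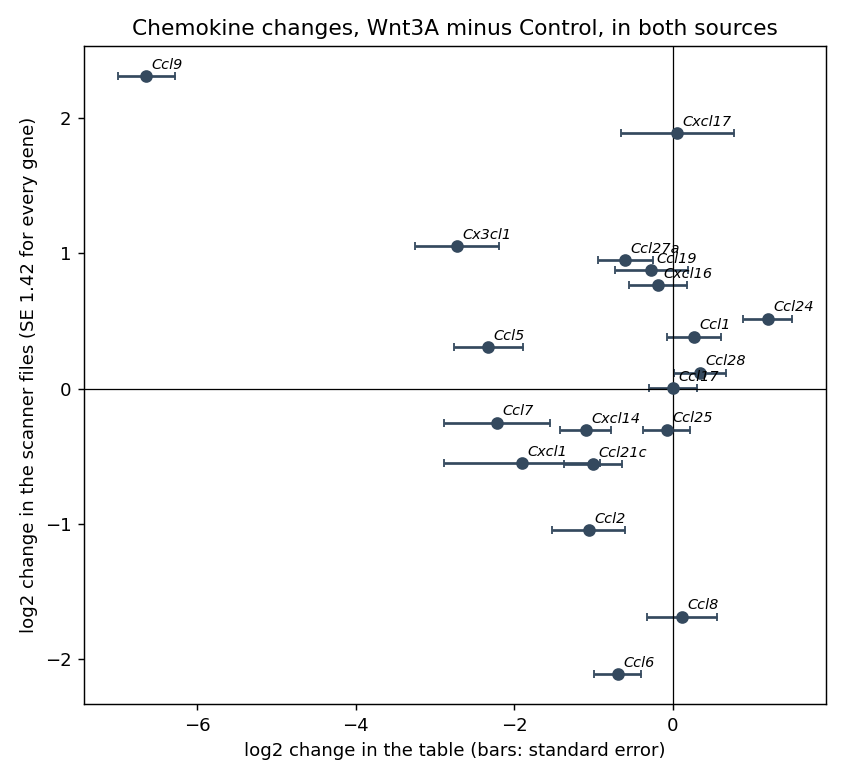
Log2 change (Wnt3A minus Control) from the deposited table with its standard error, on the horizontal axis, against that from the scanner files, on the vertical axis, for 19 chemokines measured in both. Ccl9 (-6.64 and 2.31) and Cx3cl1 (-2.72 and 1.05) lie in opposite directions, and Ccl2 (-1.06 and -1.05) and Ccl24 (1.20 and 0.52) in the same one.

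The receptors and the inducing pathways were read from lists chosen with earlier results known. Of 23 chemokine receptors 21 were tested, with 7 higher and 14 lower. Ackr4, the atypical receptor that takes up Ccl19, Ccl21 and Ccl25, rose: 3.63 and 4.18 in Wnt3A cells, against 0.363 and 0.287 in Control cells (log2 change 3.61 ± 0.34, adjusted p = 0.0468). Its other probe had a log2 change of 1.55 ± 0.67 (adjusted p = 0.436), the mean of both probes had an adjusted p of 0.112, and the scanner files gave -1.12. The adjusted p of Ackr4 stayed under 0.05 in 5 of 13 alternatives on the table, which include leaving out 1 array. For the first probe it was 0.0759 without a filter on dim probes and 0.0621 where every array had to exceed the floor. With the replicate block, where no gene was called, it was 0.127. With any 1 array of the table left out, the log2 change of the first probe was from 3.38 to 3.83. Such a fit has 1 array in a group and cannot decide whether the call holds. Cxcr6, the receptor of Cxcl16, read 0.0816 and 1.03 in Wnt3A cells and was below the floor in Control cells, at least 4.38-fold higher. Its adjusted p was 0.320 on the values as read and 0.565 with values below the floor set to the floor. The bound of 4.38-fold rests on 1 array: it was 1.25-fold without Wnt3A replicate 2 and 15.3-fold without Wnt3A replicate 1. Of the scanner files, that of Control replicate 2 alone had Cxcr6 well above background. Cxcr5, the receptor of Cxcl13, was below the floor in Wnt3A cells and read 0.0977 and 0.165 in Control cells, at least 2.02-fold lower. Its adjusted p was 0.182 on the values as read and 0.389 with values below the floor set to the floor. Cxcr5 was well above background in the scanner files of both Wnt3A arrays and of 1 Control array, with a log2 change of the opposite direction (0.84 ± 1.42).

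Of 34 genes of NF-kB and inflammatory signalling 32 were tested, with 15 higher, 17 lower and none past the adjusted threshold. Il17ra, a receptor chain for interleukin-17, read 6.67 and 7.61 in Wnt3A cells, against 2.08 and 1.45 in Control cells (adjusted p = 0.138), and the scanner files gave the opposite direction (log2 change -1.25 ± 1.42). Il1rap, the accessory chain of the interleukin-1 receptor, read 0.405 and 0.180 in Wnt3A cells, against 3.48 and 1.55 in Control cells (adjusted p = 0.183), and 1 of its other probes went the opposite way (log2 change 0.21). It was not tested in the scanner files. Ikbkg, a subunit of the kinase that releases NF-kB, read 2.29 and 2.01 in Wnt3A cells, against 1.18 and 1.06 in Control cells (adjusted p = 0.332). Another Ikbkg probe, nearly as bright, had overlapping groups (log2 change -0.03 ± 0.40). The fainter Ikbkg probes had log2 changes of 1.05, with overlap, and 2.76, without. All 12 interferon signalling genes were tested, with 3 higher, 9 lower and none past the threshold. Irf7, a transcription factor of the interferon response, read 0.490 and 0.402 in Wnt3A cells, against 2.37 and 1.27 in Control cells (log2 change -1.96 ± 0.47, adjusted p = 0.210). Stat2, which carries type I interferon signals, read 0.344 and 0.639 in Wnt3A cells, against 1.34 and 1.29 in Control cells (log2 change -1.48 ± 0.42, adjusted p = 0.272).

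All 15 genes of chemokine processing and presentation were tested, with 4 higher, 11 lower and none past the threshold. Sdc4, a heparan sulphate carrier that holds chemokines, read 30.3 and 26.0 in Wnt3A cells, against 62.7 and 77.0 in Control cells (log2 change -1.30 ± 0.31, adjusted p = 0.217), and the scanner value was 0.066 ± 1.42. Mmp2, which trims Ccl7 and Cxcl12, read 40.7 and 41.5 in Wnt3A cells, against 20.5 and 26.1 in Control cells (log2 change 0.84 ± 0.31, adjusted p = 0.366).

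Markers of other cell types bear on a bulk measurement, in which fewer cells of a type and less RNA per cell cannot be told apart. Of 8 adipocyte markers 7 were tested, all 7 lower and none past the threshold. Both Wnt3A arrays lay below both Control arrays for 5 of them, beside 23.7% of all tested genes, and the groups of 2 overlapped. The list's summed intensity was 114 and 79.2 in Wnt3A cells, against 810 and 1009 in Control cells. This sum is set mostly by Fabp4, which read 104 and 69.5 in Wnt3A cells, against 723 and 895 in Control cells. Lep was below the floor on all arrays. Summed stromal markers were 2416 and 2403 in Wnt3A cells, against 1214 and 1663 in Control cells. Of the 14 tested stromal markers, 9 were higher and 5 lower. Much of the gap between the groups lies in bright collagens. Col1a1 read 671 and 736 in Wnt3A cells, against 158 and 256 in Control cells, while Pdgfra read 13.1 and 8.99, against 42.1 and 64.1. Not every collagen was higher: Col6a1 read 66.8 and 67.2 in Wnt3A cells, against 103 and 170 in Control cells. In Control cells Fn1 was brighter than Col1a1, at 317 and 376. All 15 macrophage markers were above the floor on all 4 arrays, with sums of 17.9 and 15.9 in Wnt3A cells, against 20.7 and 16.6 in Control cells. Of the 41174 probes on the array, 30798 were also above it on all 4 arrays. Passing the floor therefore does not show that cells of a type were present. Of 8 lymphocyte markers 7 were above the floor on all 4 arrays, and the list summed to 7.86 and 7.44 in Wnt3A cells, against 12.5 and 7.83 in Control cells. Endothelial markers summed to 12.04 and 10.2 in Wnt3A cells, against 13.6 and 13.1 in Control cells, and Kdr and Tek were above the floor on none. Granulocyte markers summed to 5.74 and 6.62 in Wnt3A cells, against 6.95 and 5.42 in Control cells. The sums of the adipocyte and of the stromal markers differed beside the lower chemokines, and the part of these cell types in the chemokine values was not tested.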

How the data were processed

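Deposited were a table of all samples and 1 scanner file per sample. Per the file headers, Agilent Feature Extraction 10.5.1.1 wrote the intensity values of the scanner files. How the authors made the table's intensity values is not given in the sources used here. Its scale was linear and each column had a median of 1, but any correction or centring of genes behind it is unknown. The scanner files also hold deposited flags of other kinds, 0 or 1 per spot, for signal above background.

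The table's 43379 non-control spots were joined to the array annotation by spot number, and spots of a probe were averaged to 41174 probes. Spots of 1 probe differed by a median SD of 0.0820 to 0.101 (log2), beside 3.60 to 3.75 over all such spots. Log2 values minus each array's 75th percentile were compared. The floor was 4.94 times each column's 1st percentile, the median factor from the scanner files' flags (4.85 to 4.99), and no flag for saturation exists for the table. Groups were compared by the two-sided moderated test of limma 3.58.1 (R 4.3.3), adjusted by Benjamini-Hochberg over 33709 probes at a threshold of 0.05, with 2 residual and 2.29 prior degrees of freedom. These numbers are of the table's fit. The scanner fit gave every gene named here the same SE, 1.42, which is not the spread of that gene alone. A gene was read from its kept probe with the highest mean. A fold against a group below the floor was computed against the floor, which rests on the dimmest flagged spots. The main fit used values below the floor as read. The fit was tested on simulated data.

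Of the 42 probes, 39 were named through an accession and 3 by symbol. The text names every tested member. From each companion list it names the genes past the adjusted threshold and up to 4 with the smallest unadjusted p under 0.05. Members, lists and the choice of the table were made with earlier results of these data known. The number of arrays limits the precision.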

Additional observations from a re-analysis of the deposited data

How the results depend on the processing

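With 2 arrays a group and 2 sources that disagree, few results held throughout. Over all genes tested, 92 were higher and 55 lower in Wnt3A cells. Without a filter on dim probes these were 20 and 15, above the floor on all 4 arrays 21 and 13, and with the replicate block 0 and 0. The lower count was 84 with a floor 2 times as high, 107 with trend and robust settings and 96 with each gene's probes averaged. The scanner files called 0 higher and 2 lower, and 0 of each with normexp. Leaving out 1 array gave 0 to 0 in both directions. The single chemokine call, Ccl9, was lost with the replicate block (adjusted p = 0.0978), without any 1 array and in all 3 scanner settings. It held in 8 of 13 alternatives on the table (adjusted p from 0.0109 to 0.0444 in those 8). With 1 array left out a group holds 1 array, and with the replicate block no gene was called, so neither fit can decide on Ccl9. The labels do not say whether replicate numbers pair samples. Deviations of same-numbered arrays correlated at r = 0.0124 over probes that are not independent, which cannot decide on pairing. The chemokine median of -0.60 became 0.12 in the scanner files, -0.053 with normexp and 0.47 in the scanner files without Control replicate 1, a setting chosen after that faint file was seen.

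In the scanner files the direction reversed for Ccl19 (0.88), Ccl27a (0.95), Ccl5 (0.31), Ccl8 (-1.69), Ccl9 (2.31), Cx3cl1 (1.05), Cxcl16 (0.77), Ackr4 (-1.12), Cxcr5 (0.84), Il17ra (-1.25) and Sdc4 (0.066). With normexp it reversed for Ccl1 (-0.053), Ccl19 (1.31), Ccl25 (0.28), Ccl27a (0.43), Ccl8 (-1.35), Ccl9 (1.68), Cx3cl1 (0.58), Ackr4 (-1.48), Il17ra (-0.68) and Mmp2 (-0.040). In the scanner files without Control replicate 1 it reversed for Ccl19 (1.02), Ccl24 (-0.026), Ccl25 (0.44), Ccl27a (0.63), Ccl7 (0.56), Ccl8 (-1.32), Ccl9 (0.89), Cx3cl1 (0.47), Cxcl1 (0.74) and Cxcl14 (0.72). On the table, the mean of the probes reversed Cxcl15 (-0.068) and Cxcl16 (0.80), and Ccl17 reversed with quantile normalization (-0.015) and without further scaling (-0.0061). Leaving out 1 array gave -0.091 to 0.10 for Ccl17, -0.67 to 0.13 for Ccl19, -0.17 to 0.014 for Ccl25, -0.32 to 0.56 for Ccl8, -0.48 to 0.12 for Cxcl16 and -0.73 to 0.85 for Cxcl17. The cause of these reversals was not tested. A block for slide or scan was not run, because all 4 scanner files share 1 slide and 1 scan time.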
